A study of Rattus norvegicus with 3 samples.

Results

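The set described here is named goblet and Paneth cell products and holds 6 genes: Tff3, Zg16, Clca1, Pla2g2a, Lyz2 and Sod3. Their proteins are released into the intestinal lumen or the tissue around the crypt. The name is a grouping, and these values do not show which cells made the RNA of any of them, Sod3 included. The 6 genes were found by gene symbol among the probes of the array. This gave 7 probes of 6653 and 6 genes of 4379 named, with a pair of probes for Lyz2 and 1 for each other gene. Microarrays measured expression in jejunal tissue from male rats of the Sprague-Dawley strain, 6 weeks old, with no treatment or mutation named. The frozen gut wall was sectioned across the villi at 10 µm, and 10 sections made up a fraction of 100 µm, with 7 fractions to a column counted down from the villus top. The top villus sample was fraction 1 (0 to 100 µm), the middle villus sample fraction 4 (300 to 400 µm) and the crypt sample fraction 6 (500 to 600 µm). Fraction 7, the deepest, was not analysed here. Each part had 1 sample, the labels do not say how many rats stand behind it, and no difference below has a replicate check or a p-value.

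Goblet cells are scattered along both crypt and villus and fill the gut with mucus, a gel of mucin that is packed, cut and cross-linked by other secreted proteins. Paneth cells stay at the base of the crypt and release antimicrobial proteins from large granules. Both belong to the secretory lineage, which parts from the absorptive enterocytes when Notch signalling is low. The fractions hold the whole mucosa, so that fewer cells of a type and less RNA per cell cannot be told apart.

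Values are given as deposited, on a log2 scale. A value under the lowest 25% of its column is called dim, the level being 6.05 for crypt, 4.15 for middle villus and 5.15 for the top. A difference against a dim value is a bound, counted from that level and written as "at least", and dim values have no order among themselves. Genes differing by 2-fold or more are called higher or lower. Error could be judged only from genes with several probes measured in both parts of a comparison. Among them the log2 difference had a pooled SD of 0.91 (top villus less crypt), 0.90 (middle villus less crypt) and 1.05 (top less middle villus). This SD covers neither falls to dim nor differences between arrays or animals. The labelled parts were checked against their cells. Of the 7 dividing cell markers compared, 7 were lower in each villus part than in crypt, and of 10 enterocyte markers 10 were higher in middle villus and 8 in top villus. Against crypt, 29.5% of all genes were lower in middle villus and 39.5% in top villus, and 19.1% and 23.9% were higher.

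The values of the 6 genes along the column are described in 4 groups. The goblet cell products Tff3 and Zg16 kept nearly the same level in all parts. Clca1 had a high level in crypt and middle villus and was dim at the top. Pla2g2a was measured in crypt and dim in both villus parts. Lyz2 was highest in crypt and about level across the villus, though its differences from crypt stayed within 2 SDs between probes. Sod3 differed by less than the spread between probes.

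**Figure D1:**
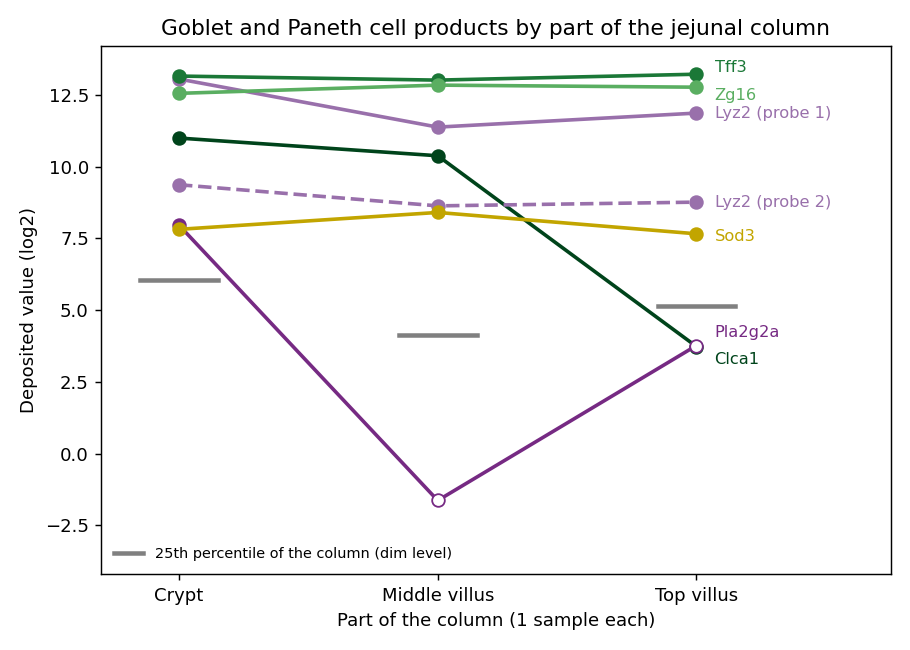
Deposited log2 value of each of the 7 probes (y axis) in the 3 parts (x axis, 1 sample each). Lines join the values of a probe, open points are dim, and grey bars mark the 25th percentile of each column. Tff3 and Zg16 run flat between 12.55 and 13.22, and the points of Clca1 and Pla2g2a lie on each other at the top (3.73 and 3.77).

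Tff3 encodes a trefoil peptide that is released with the mucins and takes part in repair of the epithelium. Its log2 value was 13.15 in crypt, 13.01 midway up the villus and 13.22 at the top. The part values lay within 0.21 of each other, a range of 1.15-fold, which is less than the spread between probes. Of 3853 probes measured in all 3 parts, 66 (1.71%) had a range as narrow as this, against a median range of 1.64. The order of the parts for Tff3 therefore does not stand out from error, and its sign at the top turned with the scaling of the columns (0.06 as deposited, from -0.40 to 0.31 under other scalings).

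Zg16 encodes a lectin-like protein of the mucus that, in the mouse, binds the cell wall of Gram-positive bacteria. The log2 values of Zg16 were 12.55 in crypt, 12.84 in the middle and 12.76 at the top. These lay within 0.29 of each other, and 123 (3.19%) of the probes measured throughout had a range as narrow. Both villus parts were above crypt, by 0.29 and 0.21, and both differences were smaller than the spread between probes. The value for the top ran from -0.16 to 0.46 under the scalings tried.

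Clca1 encodes a secreted protein of the mucus layer that cuts mucin and loosens the gel, and is made by goblet cells like Tff3 and Zg16. Crypt gave Clca1 a log2 value of 10.99 and middle villus 10.38, against 3.73 at the top. Crypt and middle villus differed by -0.62, which is less than the spread between probes, and the top villus lay far below both. On the linear scale the deposited values were 2035, 1328 and 13.3. Clca1 was thus at least 57.4-fold lower at the top than in crypt (log2 difference -5.84 or below) and at least 37.5-fold lower than in middle villus (-5.23 or below). With 1 common dim level of log2 6 in all columns these bounds were smaller, at -4.99 and -4.38. All of them were several times the SD between probes, which covers neither a fall to dim nor differences between arrays. Of 3429 genes compared in all 3 ways, 509 (14.8%) shared this course, being lower by 2-fold at the top than in the other parts while crypt and middle villus lay within 2-fold. It rests on 1 probe and on 1 array for the top.

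Plasma cells and mast cells lie in the lamina propria beneath the epithelium. The 4 plasma and B cell markers compared were all lower at the top than in crypt, beside 39.5% of all genes. Against middle villus 3 were compared and 3 were lower, beside 27.4% of all genes. Tnfrsf17 was dim in both villus parts. For top villus against crypt, 2 of the 4 differences were bounds. That of Sdc1 was just past the 2-fold limit, at -1.02 over 2 probes that differed (-1.71 and -0.32). The summed linear level of the 4 markers was 8718 in crypt, 17890 in the middle and 1936 at the top. Jchain made up most of it in crypt and middle villus, and 1 probe of Sdc1 (log2 10.71) most of it at the top. Jchain, which joins the subunits of secreted antibodies, stood at 12.46, 13.64 and 5.62. The mast cell protease Cpa3 stood at 7.83, 7.49 and 1.07, the last of these dim, and Mcpt1 at 11.38, 11.02 and 8.89. The part of these cells in the Clca1 values was not tested.

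Pla2g2a encodes a secreted phospholipase A2 of Paneth cell granules that kills Gram-positive bacteria by attacking their membrane. The log2 values were 7.95 in crypt, -1.63 in middle villus and 3.77 at the top. Only the crypt value was above the dim level, and the villus values have no order. Pla2g2a was at least 14.0-fold lower in middle villus than in crypt (-3.81 or below) and at least 7.00-fold lower in top villus (-2.81 or below). Both bounds exceeded 2 SDs between probes, which are 1.80 and 1.83, though that SD leaves out falls to dim and differences between arrays. The unequal bounds follow from the lower dim level of the middle villus column and show no deeper fall there. With 1 common dim level of log2 6 in all columns, both became -1.95.

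Lyz2 encodes lysozyme, which splits the cell wall of bacteria. In the mouse it is the form of macrophages, while the neighbouring gene Lyz1 serves Paneth cells. The brighter Lyz2 probe had log2 values of 13.05 in crypt, 11.37 in the middle and 11.86 at the top, and the other had 9.37, 8.63 and 8.76. Both probes put crypt highest and middle villus lowest. The mean difference was -1.21 for middle villus against crypt, with -1.67 and -0.74 for the separate probes, and -0.90 for top villus against crypt, with -1.19 and -0.61. The SD of a mean of 2 probes is 0.64 and 0.65 for these comparisons, so that Lyz2 stayed within 2 SDs of no difference in both. Top and middle villus differed by 0.31, which is also within the spread.

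Markers of macrophages were read beside Lyz2. Of the 5 compared, 4 were higher in top villus than in crypt and 0 lower, beside 23.9% higher and 39.5% lower over all genes. The summed linear level of the 5 was 3895 in crypt, 7861 in the middle and 23619 at the top. C1qb, a chain of the complement protein C1q, stood at 9.82, 11.10 and 12.01, and Cd74, the invariant chain of MHC class II, at 10.69, 11.41 and 13.80. Cd74 made up most of the sum at the top, so that the sum there does not stand for all the markers. C1qc, another C1q chain, stood at 9.33, 10.03 and 9.25, and the adaptor protein Tyrobp at 7.20, 9.11 and 8.30, both highest in middle villus. No probe of this list was dim in any part. No neutrophil marker of the list was among the named probes. The part of macrophages in the Lyz2 values was not tested.

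Sod3 encodes the superoxide dismutase that is secreted and held on the extracellular matrix. It stood at 7.81 on the log2 scale in crypt, 8.40 in the middle and 7.66 at the top. Its differences of 0.59 (middle villus less crypt), -0.16 (top less crypt) and -0.74 (top less middle) were all within the spread between probes, and the sign of the second turned to 0.10 under quantile normalization. The order of its parts is therefore within error. Smooth muscle markers had summed linear values of 8536, 8971 and 10043, and those of fibroblasts were 4094, 2806 and 3233. Fibroblast markers took unlike courses, so that their sum does not stand for all of them. Of 6 compared, 1 was higher and 2 lower at the top than in crypt, beside 23.9% and 39.5% of all genes. Of the 7 fibroblast probes 3 were dim at the top. The part of smooth muscle cells and fibroblasts in the Sod3 values was not tested.

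Counted by comparison, 2 of the 6 genes were lower and 0 higher in top villus than in crypt, where 39.5% of the 3932 genes compared were lower and 23.9% higher. The lower pair was Clca1 and Pla2g2a. In middle villus against crypt 2 of 6 were lower, Pla2g2a and Lyz2, and 0 higher, beside 29.5% lower and 19.1% higher among all 3825 genes. In top against middle villus 1 of 5 was lower, Clca1, and 0 higher, beside 27.4% lower and 29.5% higher among 3768 genes. Pla2g2a was dim in both and not compared. These shares are near the background, and nothing follows from the counts. The median difference of the members was -0.53, -0.38 and -0.07 in the 3 comparisons, beside -0.39, -0.08 and 0.00 over all genes. Tff3, Zg16 and Sod3 stayed within 2-fold in all 3 comparisons, as did 741 of 3429 genes (21.6%).

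**Figure D2:**
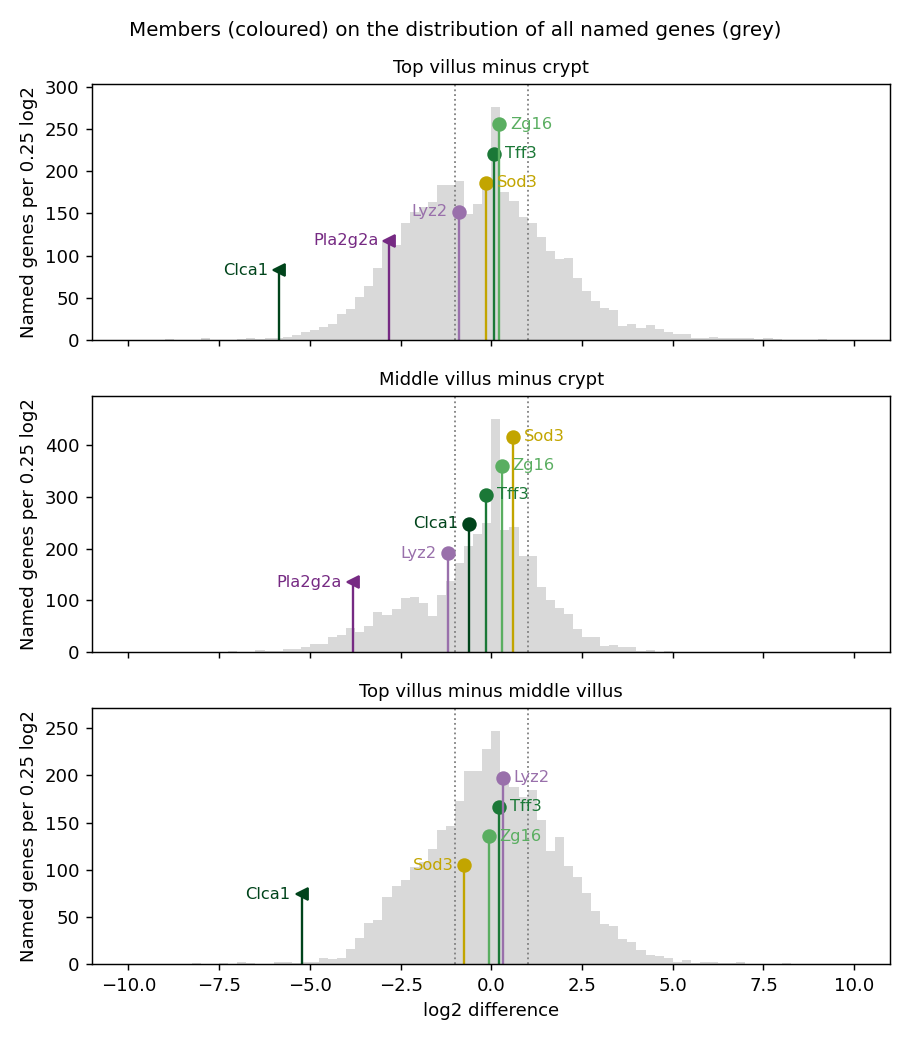
Log2 difference (x axis) of all named genes as grey bars (y axis, genes per 0.25 log2) and of the members as coloured stems whose heights carry no value, for the 3 comparisons. Triangles are bounds and dotted lines mark 2-fold. Clca1 stands at -5.84 and -5.23 against crypt and middle villus at the top, in the left tail, while Tff3 and Zg16 stand near 0 in every panel.

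The bases before the start of transcription are shown for Clca1 and Pla2g2a, whose values differed most between parts, and for Tff3, whose values differed least. They come from RefSeq, assembly GRCr8, whose promoter table held 4 of the 6 members, and each runs over the 250 bases up to the start, 5′ to 3′ on the strand of the gene. Capitals mark matches on either strand to 6 short motifs. The TATA box was searched as TATAAA, and the E-box read by basic helix-loop-helix factors such as Atoh1 as CAGCTG. The core of TCF/LEF factors was searched as CTTTGA, that of KLF factors as CACCC, that of CDX factors as TTTATG and that of forkhead factors as TGTTTAC. No matches overlapped in the printed windows. Clca1 lies at chr2:236624715-236624964 on the minus strand, Pla2g2a at chr5:156359475-156359724 on the plus strand and Tff3 at chr20:9199334-9199583 on the minus strand.
Clca1: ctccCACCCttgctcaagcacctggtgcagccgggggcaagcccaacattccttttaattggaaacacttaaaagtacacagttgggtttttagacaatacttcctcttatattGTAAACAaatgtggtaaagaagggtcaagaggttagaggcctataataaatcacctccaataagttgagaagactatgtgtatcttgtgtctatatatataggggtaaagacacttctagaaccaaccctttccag
Pla2g2a: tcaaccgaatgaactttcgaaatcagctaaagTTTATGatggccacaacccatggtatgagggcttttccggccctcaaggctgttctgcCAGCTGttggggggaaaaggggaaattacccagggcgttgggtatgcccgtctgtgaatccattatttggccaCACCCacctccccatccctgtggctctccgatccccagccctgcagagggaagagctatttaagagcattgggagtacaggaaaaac
Tff3: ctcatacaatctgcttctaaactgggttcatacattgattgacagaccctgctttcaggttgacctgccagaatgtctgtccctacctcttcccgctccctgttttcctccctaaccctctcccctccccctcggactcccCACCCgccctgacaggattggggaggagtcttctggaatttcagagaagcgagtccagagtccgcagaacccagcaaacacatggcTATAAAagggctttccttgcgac

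The Clca1 window held the forkhead letters on the opposite strand, 136 to 130 bases before the start, which 3.21% of all 33469 windows hold. It also held the KLF letters, found in 49.2% of windows. In Pla2g2a the E-box lay 160 to 155 bases before the start (12.0% of windows), the CDX letters at 218 to 213 (11.4%) and the KLF letters at 87 to 83. Tff3 had the TATA letters at 23 to 18 bases before the start (12.9%) and the KLF letters at 109 to 105. In Lyz2, whose sequence is not printed, the TCF/LEF letters lay at 205 to 200 (13.9%). A match is a description of the letters and not a bound site.

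The wider goblet cell list held 27 genes, of which 7 had a named probe. In top villus 2 of these 7 were higher than in crypt and 2 lower (median 0.06), and in middle villus 1 was higher and 1 lower (median 0.17). Over all genes, 23.9% were higher and 39.5% lower at the top (median -0.39), and 19.1% and 29.5% in middle villus (median -0.08), which is the background for the lists that follow. Guca2a, whose product guanylin stimulates chloride and bicarbonate secretion, had log2 values of 12.04, 14.25 and 14.12, above crypt by 2.21 and 2.08. Sytl2, which tethers secretory granules through Rab27, stood at 8.44, 8.60 and 9.85, higher at the top than in crypt. Galnt7, a transferase of mucin O-glycans, was at 6.20 in crypt, just above the dim level, and dim in both villus parts. Bcas1 stood at 8.22, 8.78 and 7.44, lower at the top than in middle villus by 1.35.

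On the Paneth cell list 7 of 28 genes had a named probe. In middle villus 5 of 7 were lower than in crypt and 0 higher (median -1.21), and in top villus 3 of 6 were lower and 0 higher (median -1.25). All genes had 29.5% lower in middle villus and 39.5% at the top, with medians of -0.08 and -0.39, and the count at the top is near that background. Bounds made up 3 of the 7 differences in middle villus and 3 of the 6 at the top. Their size depends on the dim levels. Sox9, a transcription factor needed for Paneth cells, was at 6.77 in crypt and dim in both villus parts. It was at least 6.15-fold lower in middle villus and at least 3.07-fold at the top. These bounds are unequal because the dim level of the middle villus column is lower. Ephb2, a receptor that keeps cells in their place along the crypt, was at 7.02 in crypt and at least 7.32-fold lower in middle villus, and its top villus cell was empty. Gfi1, a transcriptional repressor active in the secretory lineage, was at 6.74, 5.67 and 2.65, the last of these dim. Cd24, a surface glycoprotein, was within 2-fold at 12.09, 11.87 and 11.33. The list holds 3 of the members, whose values were known when it was drawn up, and its counts are no independent evidence.

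**Figure D3:**
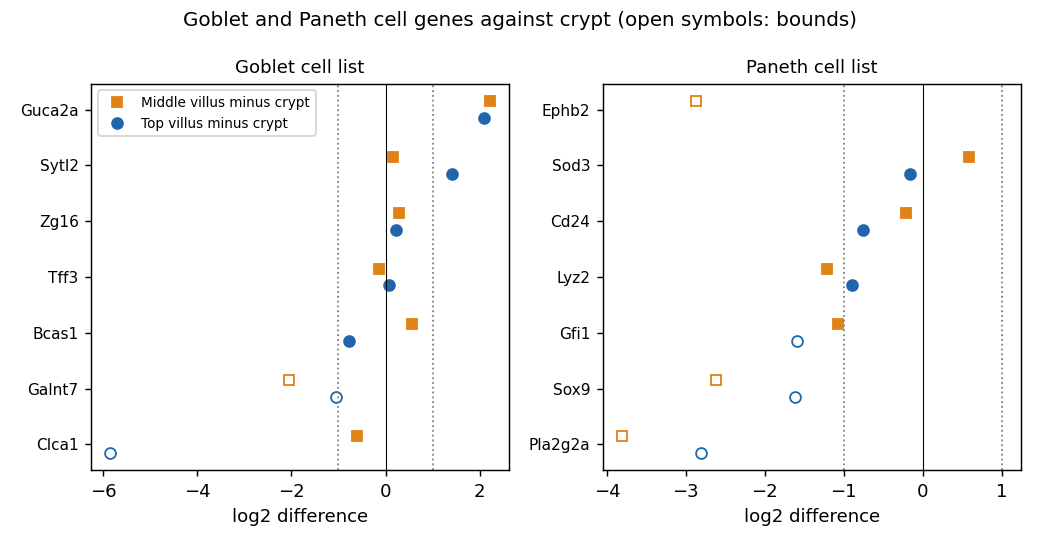
Log2 difference from crypt (x axis) of the named genes on the goblet and Paneth cell lists (y axis), for middle villus (squares) and top villus (circles). Open symbols are bounds and dotted lines mark 2-fold. Genes of the goblet list lie on both sides of 0, and on the Paneth list 0 genes were higher by 2-fold in either villus part.

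Relatives of the members took other courses. Clca4, of the same family as Clca1, had log2 values of 7.08 in crypt, 11.86 in the middle and 14.61 at the top, so that it was higher by 4.78 and 7.54 than in crypt while Clca1 was lower at the top. Among secreted phospholipases, Pla2g10 was level at 7.74, 7.76 and 7.64. Pla2g2d was dim in crypt and middle villus and stood at 7.38 at the top, at least 2.52-fold higher than in crypt. Of the other superoxide dismutases, the cytosolic enzyme Sod1 was lower at the top than in crypt by 1.90 on the log2 scale over 2 probes (-1.54 and -2.25). The mitochondrial enzyme Sod2 was at 6.62 in crypt and dim in the villus. In all, 11 of the 32 family genes listed had a named probe.

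**Figure D4:**
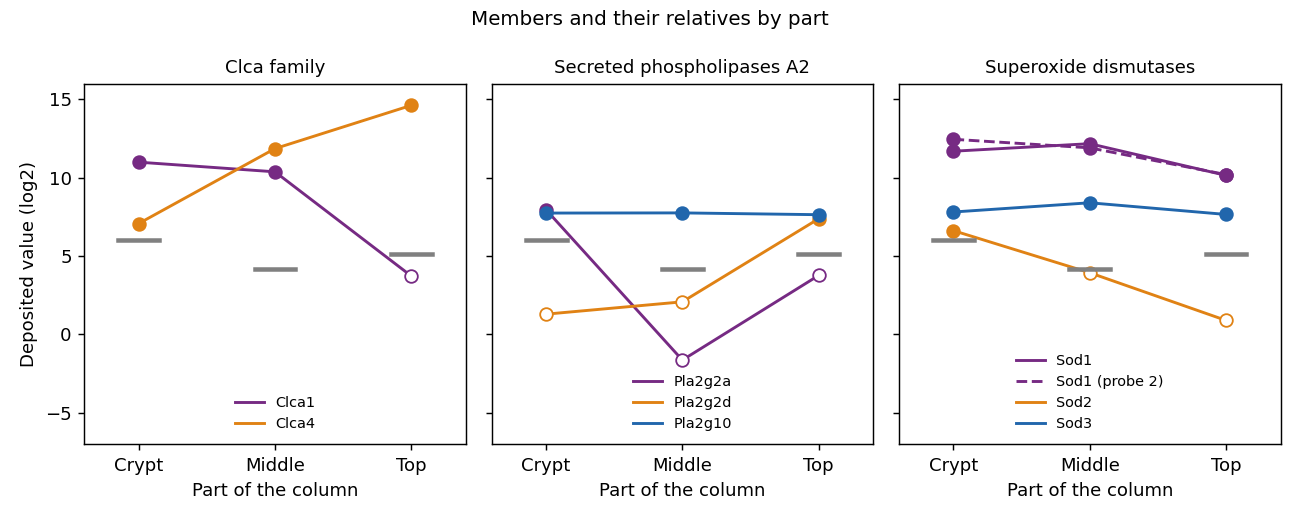
Deposited log2 value (y axis) of Clca1, Pla2g2a and Sod3 and their relatives in the 3 parts (x axis, 1 sample each), by family. Open points are dim, grey bars mark the 25th percentile of each column, and the dashed line is the second probe of Sod1. Clca1 and Clca4 cross between crypt and top villus, from 10.99 and 7.08 to 3.73 and 14.61.

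Of 22 regulators listed for the secretory lineage, 7 had a named probe. Of these 7, 5 were lower and 1 higher in top villus than in crypt (median -1.62), and 6 were lower and 1 higher in middle villus (median -2.62). Over all genes 39.5% were lower at the top and 29.5% in middle villus, with medians of -0.39 and -0.08. Within the villus 3 of 6 were higher at the top than in the middle and 0 lower (median 0.76). Over all genes 29.5% were higher and 27.4% lower, and the median was 0.00. Of the 6 differences 4 were bounds. Gfi1, Foxa2 and Hes6 were measured in the middle and dim at the top, with -0.53, 0.00 and -0.99 or below. Whether these were lower by 2-fold is not settled, because the dim level at the top is above that of the middle. The median carries the same limit. Foxa2, a forkhead factor of the gut epithelium, was at 7.66 in crypt, 4.91 in the middle and 3.18 at the top, the last of these dim. Hes6, which opposes Hes1, was at 9.27, 6.13 and 4.45, also dim at the top. Hes1, the Notch target that turns cells away from the secretory lineage, was lowest in middle villus, with -2.33 there and -0.82 at the top. Jag1, a Notch ligand, was at 9.11, 3.55 and 6.31, dim in middle villus. The gene on the higher side was Klf4, a factor needed for goblet cell maturation in the mouse colon, at 9.49, 10.68 and 12.74.

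Secreted proteins are folded and exported through the endoplasmic reticulum, and 30 of 52 genes listed for it had a named probe. Against crypt, 17 of the 28 compared were lower at the top and 4 higher (median -1.35). Midway up the villus 9 of 27 were lower and 5 higher (median -0.22). All genes had 39.5% lower and 23.9% higher at the top (median -0.39) and 29.5% and 19.1% in middle villus (median -0.08), so that the middle villus counts are near the background. Top less middle villus gave 11 of 27 lower and 2 higher (median -0.56), beside 27.4% lower and 29.5% higher over all genes. Hsp90b1, a chaperone, was at 8.56, 9.60 and 3.88, the last of these dim, and Hyou1, another, at 10.13, 10.29 and 7.68. Ddost, a subunit of the N-glycan transferase, was at 10.31, 9.81 and 7.07, so that all of these, like Clca1, were lowest at the top. Creld2 was already low in middle villus, at 8.87, 5.52 and 4.07, and dim at the top. On the higher side were P4hb, which forms disulphide bonds, at 12.44, 13.72 and 14.53, and Herpud1 at 7.38, 10.24 and 9.74. Enterocytes and plasma cells use these genes too.

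**Figure D5:**
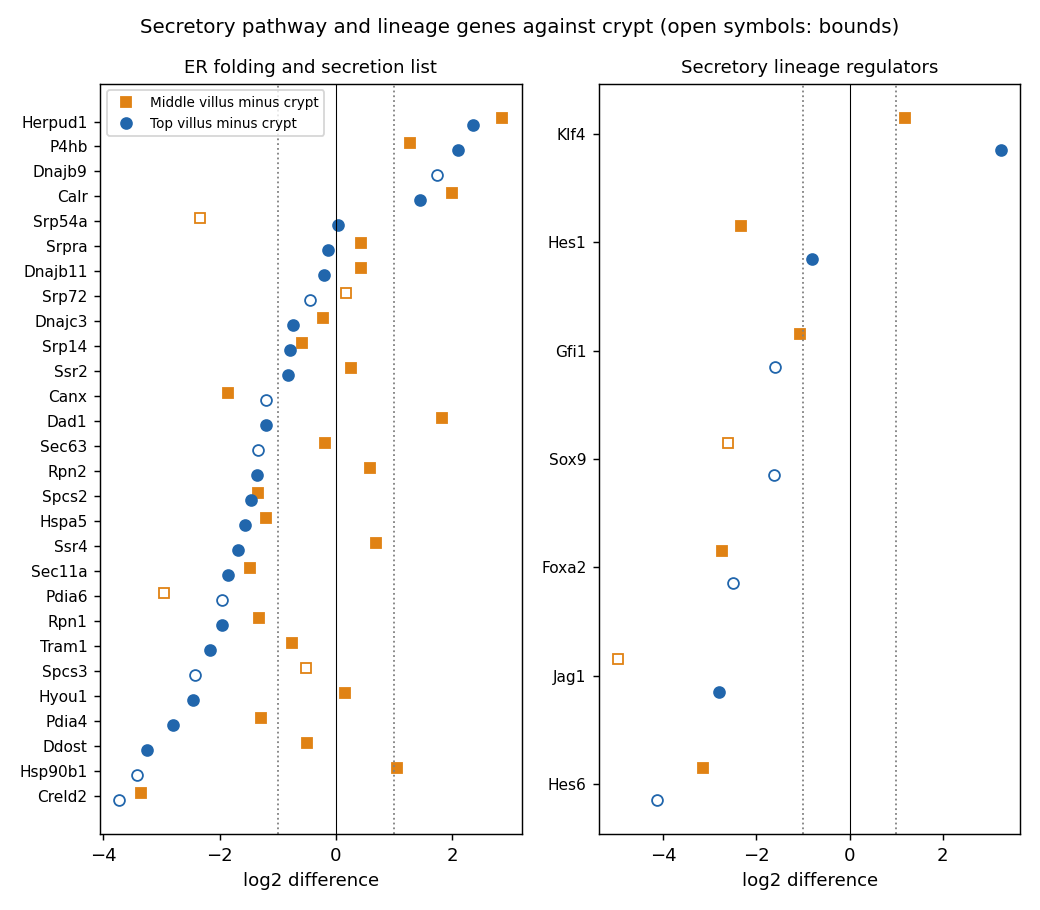
Log2 difference from crypt (x axis) of genes of endoplasmic reticulum folding and export and of secretory lineage regulators (y axis), for middle villus (squares) and top villus (circles). Open symbols are bounds and dotted lines mark 2-fold. On the first list 17 of 28 genes lie at or below -1 at the top and 9 of 27 in middle villus.

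Of the genes listed for mucin O-glycan synthesis, 13 of 38 had a named probe. Against crypt, 5 of 13 were lower at the top and 3 higher (median 0.00), and 3 of 10 were lower and 3 higher in middle villus (median -0.13). All genes had 39.5% lower and 23.9% higher at the top, and 29.5% and 19.1% in middle villus. At the top 8 of 11 were higher than in middle villus and 3 lower (median 1.42), beside 29.5% higher and 27.4% lower over all genes (median 0.00), and 4 of the 11 differences were bounds. St3gal4, a sialyltransferase, was at 7.25, 9.14 and 13.50. C1galt1c1, the chaperone of the enzyme that extends the first sugar, was at 8.13, 8.10 and 6.09. Papss2, which makes the sulphate donor, was highest in middle villus, at 9.29, 12.27 and 5.50, while the related Papss1 was at 7.81, 8.89 and 9.96.

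Among markers of the remaining cell types, 3 of 8 enteroendocrine genes were higher in top villus than in crypt and none lower, and of 8 smooth muscle genes 1 was higher and none lower. Of 6 fibroblast genes 1 was higher and 2 lower, and of 4 endothelial genes 2 were higher and none lower. Both mast cell markers compared were lower, and of 2 tuft cell markers 1 was higher, beside 39.5% lower and 23.9% higher over all genes. The enteroendocrine cells belong to the secretory lineage like goblet and Paneth cells. Chga, stored in their granules, was at 8.24, 8.54 and 8.68.

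Genes with the most similar course to each member were found by the root mean square distance between the values of the 3 parts, each centred on its mean. For Tff3 the nearest of 2695 genes measured in all parts was Hadhb (distance 0.01 on the log2 scale), followed by Nptn and Srebf2. For Zg16 they were Slc38a10 (0.01), Copz1 and Plod3, for Lyz2 Slx4 (0.0034), Hnrnpl and Dcun1d1, and for Sod3 Pagr1 (0.01), Cdk5rap3 and Ap2a2. Among 293 genes dim at the top alone, the nearest to Clca1 were Gsta4 (0.37), Selenbp1 (0.39) and Timm9 (0.49). For Pla2g2a, dim in both villus parts, the likeness carries only the crypt value, and the nearest of 276 genes were Naa35, Aimp2 and Cd1d1. Over 3 points close neighbours are common, and likeness says nothing of function.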

How the data were processed

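Total RNA of 3 jejunal cryostat fractions was column-purified and linearly amplified for labelling with Cy3 and Cy5, per the labels' protocols. The deposited table holds 1 column per part, with values read from their range as log2. For its normalization, channel and direction the sources used here give nothing. Lower quartiles differ between columns, which were therefore not equalized, and 13 top villus cells are empty. Column medians are 7.81 for crypt, 7.83 for the middle and 7.57 for the top of the villus. The 3 scanner files (ScanArray Express 2.00, LOWESS, per the file headers) hold 22575 spots each, of which 0 carry a name or ID, and were not used.

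Of 6653 probes, 4820 have 1 symbol, 0 have several and 1833 are unnamed here. Checked by Entrez identifier, 4806 are in the RefSeq table of GRCr8 and 0 symbols changed. The array's own build is not stated in these sources. Gene differences are means over probes. A bound was not allowed to pass 0, and a gene dim in both parts was not compared. With 1 array per part no test was possible, and precision is limited by the number of arrays. The SD between probes rests on 206 genes for top villus less crypt, 222 for middle villus less crypt and 247 for top less middle villus, and covers neither animals nor hybridisations.

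The members and the 17 gene lists (125 of their genes have a named probe) were chosen with earlier results of these data known, and the promoter motifs with the sequences in view. Genes named are the members, genes of these lists, and for each member the 3 genes with the nearest course among those measured and dim in the same parts. Alternatives were median, 75th percentile and quantile scaling, no dim level, a common dim level of log2 6, the brightest probe, and limits of 1.5-fold and 4-fold. The steps were run on simulated data, with large shifts placed in genes above the column median. That run concerns the working of the steps and lends no support to the differences reported. Python 3.11.15, pandas 2.3.3, numpy 2.4.6 and matplotlib 3.10.9 were used.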

Additional observations from a re-analysis of the deposited data

How the results depend on the processing

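No paired analysis was possible because each part has 1 sample, and no replicate could be left out for the same reason. Of 102 recomputed differences of the members, 96 moved by less than the spread between probes and 0 of those called changed sign. The other 6 concern values against a dim part. Many of the 96 could not move, so that their number is no measure of stability. The dim level settings leave differences between measured values unchanged, and the brightest probe can alter Lyz2 alone. The sign of a bound could not turn either, as a bound was not allowed to pass 0. Without a dim level Clca1 stood at -7.26 against crypt and -6.64 against middle villus at the top, and Pla2g2a at -4.19 at the top and -9.59 in middle villus against crypt. With a common level of log2 6 Clca1 stood at -4.99 (top villus less crypt) and -4.38 (top less middle villus), within the spread between probes of the reported bounds. In middle villus Pla2g2a moved to -1.95 with that level and to -2.77 under quantile normalization. Without a dim level Pla2g2a also counted as 1 member higher in top than in middle villus, by 5.40, from 2 values that are both dim.

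At 1.5-fold 1 member, Sod3, was higher in middle villus than in crypt and 2 were lower at the top than in middle villus, Clca1 and Sod3. Against crypt 3 were then lower in middle villus, with Clca1 added at -0.62, and 3 at the top, with Lyz2 added at -0.90. At 4-fold 1 was lower in middle villus than in crypt, Pla2g2a. With the brightest probe alone Lyz2 was also lower at the top than in crypt, at -1.19. Over all genes, the 4-fold limit left 477 above and 866 below crypt at the top, 234 and 714 in middle villus, and 519 above and 515 below middle villus at the top. Of the genes called in middle villus against crypt 39.3% were higher (730 of them, with 1127 lower), and under quantile normalization 49.9% (935 and 940). The median of all genes for top villus against crypt moved from -0.39 to -0.15 under median scaling and to -0.18 under quantile normalization, and that for top against middle villus from 0.00 to 0.24 under median scaling. For top against middle villus, 1112 genes were higher and 1033 lower as reported. A common dim level of log2 6 gave 769 higher and 966 lower. The balance of that background therefore depends on the dim levels.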
